A study of Mus musculus with 54 samples.

Results

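The response of naive CD4+ T cells lacking the adaptor LAT to 4 h of stimulation was measured by RNA sequencing. The comparison holds the 3 libraries labelled Lat-/- at 4 h and the 3 labelled Lat-/- at 0 h, that is 6 of the 54 libraries of the series, and they were chosen by genotype and time alone. The series compared CD4+ T cells lacking LAT, CD5, CD6, or both CD5 and CD6 with WT cells, in 2 experiments that were counted in separate tables. In the LAT experiment, WT (hDTR+) and Lat-/- (hDTR-) naive cells were sorted by flow cytometry from pooled lymph nodes and spleens of Latfl-dtr maT-Cre mice on the C57BL/6 background, where hDTR is the human diphtheria toxin receptor that marks the floxed allele. Both groups thus came from mice with the floxed allele and the Cre transgene, and the promoter of that transgene is not given in the sources used here. The mice were 8 to 10 weeks old. The 0 h cells were lysed immediately after purification, and the 4 h cells were cultured with plate-bound anti-CD3 at 3 µg/ml and soluble anti-CD28 at 1 µg/ml, so the effects of culture and of the antibodies cannot be told apart. The replicates are described as independent samples, but nothing says whether they came from separate mice, so p-values measure the spread between these libraries.

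LAT is a membrane adaptor that is phosphorylated by ZAP-70 when the T cell receptor (TCR) is engaged. Phosphorylated LAT brings together phospholipase C gamma 1, Grb2 and SOS, GADS, and SLP-76, which carry the signal to calcium and NFAT, to RAS and ERK, and to protein kinase C theta and NF-kappaB. CD28 adds a costimulatory signal that acts largely through PI3K and NF-kappaB. In naive T cells these pathways switch on immediate early transcription factors within minutes, then cytokines, nutrient transporters, and genes of ribosome production, while receptors and factors that keep naive cells resting are switched off.

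The 6 libraries held 17784644 to 25210400 counts, and 3 counts correspond to 0.119 to 0.169 normalized read counts (CPM), the limit that a count of 0 allows for counting error only. Lat itself (ENSMUSG00000030742.7, chromosome 7) was at 15.2, 11.6, and 19.1 CPM in the Lat-/- libraries at 0 h and at 6.79, 5.69, and 11.3 CPM at 4 h. The WT libraries held 292, 214, and 241 CPM at 0 h and 314, 351, and 262 CPM at 4 h, so the Lat-/- mean was 6.14% of the WT mean at 0 h and 2.57% at 4 h. All 8 CD4+ T cell markers were detected, with a summed level of 7452 to 8898 CPM at 0 h and 6508 to 7256 CPM at 4 h. Markers of other cells summed to far less than these, but not to 0. B cell markers summed to 4.38 to 6.26 CPM at 0 h and 6.75 to 10.2 CPM at 4 h with Ms4a1 at 0. Myeloid markers summed to 75.6 to 87.7 and 65.9 to 81.2 CPM with S100a8 and S100a9 at 0. NK cell markers summed to 125 to 163 and 80.1 to 85.7 CPM, and CD8 markers to 32.6 to 35.7 and 24.6 to 29.4 CPM. Gamma delta T cell markers summed to 14.5 to 16.5 and 6.83 to 10.5 CPM, erythroid markers to at most 0.447 and 2.60 CPM, and stromal markers to 255 to 267 and 258 to 328 CPM. The 5 regulatory T cell markers summed to 87.0 to 121 CPM at 0 h and 211 to 223 CPM at 4 h, with 2 higher and 1 lower. Other markers were called too: 3 of 6 NK cell, 2 of 5 gamma delta T cell, 2 of 8 tested myeloid, and 1 of 5 stromal markers were lower. Of 10 B cell markers 1 was higher and 1 lower, and 1 of the 8 CD4+ T cell markers was higher.

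Libraries with the same label differed. At 4 h, heat shock genes were high in libraries 1 and 2 and low in library 3 in both genotypes, and Irf1 and several guanylate-binding protein genes were high in Lat-/- libraries 1 and 3 and lower in library 2. WT library 3 at 4 h stood apart from WT libraries 1 and 2, with Klf2 at 198, 192, and 607 CPM and Il7r at 309.6, 369.8, and 751 CPM.

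A gene was called higher or lower when its fold change was over 2 at an adjusted p under 0.05 in edgeR's quasi-likelihood test over 27780 genes. That fit gave every gene the spread of genes of similar abundance, which makes p-values of variable genes too small. The log2 fold changes, standard errors (SE), and adjusted p-values printed beside genes therefore come from a second edgeR fit of 13928 genes with enough counts, in which each gene has its own spread. Of the 856 genes called higher, 806 were in that fit and 734 were called there too, and of the 1005 called lower, 961 and 879. Values given for a library left out come from the first fit. Several counts of called members given for lists were of 1 or 2 genes and moved by 1 or 2 when a library was left out. Low counts for a list, such as 0 or 1, can be near the share over all genes tested, 3.08% higher and 3.62% lower. That share includes genes with very few reads. Of the 13928 genes of the second fit, 793 were called higher and 918 lower, so the share among genes with enough counts was larger. Counts for a list were tested against neither share.

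In Lat-/- cells, 856 genes were higher at 4 h, 3.08% of the genes tested, and 1005 were lower, 3.62%. In WT cells of the same experiment, 2236 genes were higher (8.05%) and 2581 lower (9.29%). The median log2 fold change of all genes tested was 0 in both genotypes. Only 23676 of the genes tested had a read in the 6 Lat-/- libraries, and genes without one have a fold change of 0. This median is therefore no measure of the balance of the response. The 522 genes higher in both genotypes were 61.0% of those higher in Lat-/- cells and 23.35% of those higher in WT cells. The 765 genes lower in both were 76.1% of the Lat-/- list and 29.6% of the WT list. Genes called in opposite directions were few, 12 higher in Lat-/- cells and lower in WT cells and 4 the reverse. The responses of the 2 genotypes share no library, so their difference was tested directly. The Lat-/- response lay above the WT response for 1214 genes (4.37%) and below it for 1207 (4.34%). This split moved with scaling, to 1666 and 929 genes with library totals in place of TMM factors, and the first count rose to 1841 without WT library 3 at 4 h. The Lat-/- response itself gave 757 higher and 1172 lower genes with library totals, so that 39.2% rather than 46.0% of its calls were higher. With all libraries numbered 3 left out, it gave 894 and 995.

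**Figure D1:**
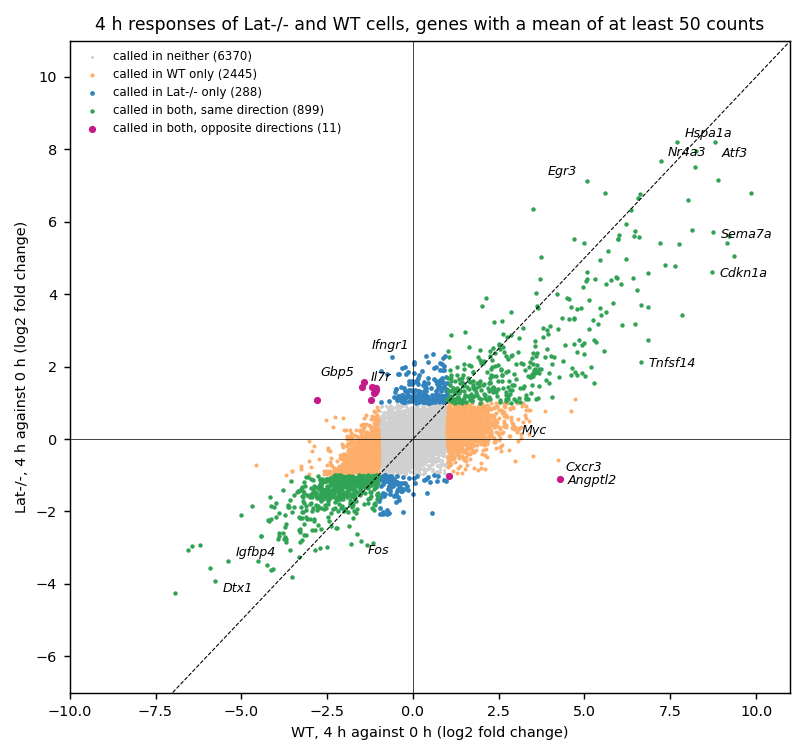
Each point is a gene with a mean of at least 50 counts; the horizontal axis is the log2 fold change at 4 h in WT cells and the vertical axis that in Lat-/- cells, and colors mark genes called in both genotypes, in WT cells only, or in Lat-/- cells only. Of the genes plotted, 2445 were called only in WT cells, 288 only in Lat-/- cells, 899 in both in the same direction, and 11 in opposite directions.

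A score built on other libraries gave 1 number for the response. The genes came from the CD5/CD6 experiment, where 2661 were higher and 3587 lower in its own WT cells after 4 h. The score set the mean WT rise of the LAT experiment at 100%. The Lat-/- libraries at 4 h scored 41.2%, 38.4%, and 35.2%, a mean of 38.3% ± 3.02 (SD, n = 3), and the WT libraries 109%, 107.5%, and 83.9%. The groups did not overlap (p = 0.1 by a two-sided exact permutation of the 6 libraries, and no smaller p is possible with 3 against 3).

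The immediate early genes of the NR4A and EGR families rose. Of 12 genes of this list, 8 were called higher and none lower, with a median log2 fold change of 3.16, against 10 higher in WT cells (median 4.43). Nr4a3, a nuclear receptor without a known ligand that is switched on by TCR signals (ENSMUSG00000028341.9, chromosome 4, 48045153 to 48086447, plus strand), stood at 3.16, 2.47, and 2.4 CPM in the 3 Lat-/- libraries at 0 h and at 598, 478, and 568 CPM at 4 h. The 4 h libraries lay far above every 0 h library, a 208-fold rise (log2 fold change 7.70 ± 0.40 SE, edgeR adjusted p = 2.57e-10). Its relative Nr4a2 rose from 0.691, 0.14, and 0.976 CPM to 90.5, 70.4, and 104 CPM (log2 fold change 7.17 ± 0.49 SE, edgeR adjusted p = 8.42e-09). Nr4a1 rose from 15.8, 6.99, and 54.6 CPM to 1259, 1002, and 1336 CPM (log2 fold change 5.56 ± 0.61 SE, edgeR adjusted p = 2.16e-06). In WT cells Nr4a3 went from 23.4 ± 3.92 to 3492 ± 783 CPM and Nr4a1 from 126 ± 40.5 to 7870 ± 1252 CPM, so the Lat-/- rise in CPM was 15.7% ± 1.8 and 15.2% ± 2.26 of the WT rise (mean ± SD over the 3 Lat-/- libraries).

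Egr3, a zinc finger factor induced by NFAT and ERK signals, rose by more on the log scale than in WT cells, from a lower level. It went from 1.33, 0.979, and 1.5 CPM to 185, 132, and 226 CPM (log2 fold change 7.16 ± 0.40 SE, edgeR adjusted p = 6.01e-10), against a change from 32 ± 7.83 to 1080 ± 123 CPM in WT cells, and the fold changes differed (log2 difference of responses 2.06 ± 0.47 SE, edgeR adjusted p = 0.00267). Egr1 rose from 31.1, 16.6, and 55.8 CPM to 337, 239, and 292 CPM (log2 fold change 3.09 ± 0.34 SE, edgeR adjusted p = 2.55e-06). Its corepressor Nab2 rose from 8.14, 6.57, and 11.6 CPM to 94.9, 75.2, and 82.3 CPM (log2 fold change 3.28 ± 0.21 SE, edgeR adjusted p = 3.02e-09). Egr2 had 0, 1, and 2 reads at 0 h and 2.81, 1.53, and 3.12 CPM at 4 h. Ier3, a stress-induced survival gene, was called at 0.296, 0, and 0.773 and 1.32, 1.11, and 1.35 CPM but missed the threshold with its own spread (edgeR adjusted p = 0.0665). All 4 h libraries of these genes were above all 0 h libraries.

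The stretch around the start site of 4 genes with high rises and 1 with a deep fall is shown as an example of the motifs searched in all promoter windows, with matches in capitals. The windows are from RefSeq on GRCm38.p6 and run from 250 bases before to 50 bases after the start, 5′ to 3′ on the gene's strand. Capitals mark a cAMP response element (CRE) core TGACG, an NF-kappaB site, an ATF4 site TGATGNAA, or a heat shock pair GAANNTTC on either strand. The first belongs to Hspa1a (chr17:34972107-34972406, minus strand), the inducible HSP70 chaperone, the second to the stress factor Atf3 (chr1:191183284-191183583, minus strand), the third to Nr4a3 (chr4:48045055-48045354, plus strand), the fourth to the small heat shock protein Hspb1 (chr5:135887669-135887968, plus strand), and the last to Dtx1 (chr5:120711620-120711919, minus strand), the Notch regulator Deltex, which fell.
Hspa1a: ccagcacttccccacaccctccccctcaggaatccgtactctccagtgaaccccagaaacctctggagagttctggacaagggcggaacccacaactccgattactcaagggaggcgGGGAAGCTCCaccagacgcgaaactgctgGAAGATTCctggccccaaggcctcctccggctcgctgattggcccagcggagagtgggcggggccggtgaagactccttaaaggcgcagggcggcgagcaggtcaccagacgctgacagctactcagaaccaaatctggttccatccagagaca
Atf3: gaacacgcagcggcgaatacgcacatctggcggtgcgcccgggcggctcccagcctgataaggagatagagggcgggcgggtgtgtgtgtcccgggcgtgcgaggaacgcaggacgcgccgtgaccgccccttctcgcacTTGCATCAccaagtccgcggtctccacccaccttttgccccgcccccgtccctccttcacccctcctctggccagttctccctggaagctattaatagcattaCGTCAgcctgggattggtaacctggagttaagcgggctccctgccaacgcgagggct
Nr4a3: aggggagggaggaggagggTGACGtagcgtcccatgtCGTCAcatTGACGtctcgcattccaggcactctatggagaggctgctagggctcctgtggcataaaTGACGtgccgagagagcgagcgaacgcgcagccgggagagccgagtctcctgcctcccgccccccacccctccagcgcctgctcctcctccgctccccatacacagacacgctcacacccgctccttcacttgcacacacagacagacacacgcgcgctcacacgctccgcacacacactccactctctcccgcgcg
Hspb1: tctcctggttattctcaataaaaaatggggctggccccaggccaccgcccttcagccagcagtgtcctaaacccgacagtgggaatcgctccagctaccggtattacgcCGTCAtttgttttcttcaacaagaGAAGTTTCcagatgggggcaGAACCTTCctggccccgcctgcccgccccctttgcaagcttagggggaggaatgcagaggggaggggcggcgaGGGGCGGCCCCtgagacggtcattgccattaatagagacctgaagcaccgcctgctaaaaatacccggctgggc
Dtx1: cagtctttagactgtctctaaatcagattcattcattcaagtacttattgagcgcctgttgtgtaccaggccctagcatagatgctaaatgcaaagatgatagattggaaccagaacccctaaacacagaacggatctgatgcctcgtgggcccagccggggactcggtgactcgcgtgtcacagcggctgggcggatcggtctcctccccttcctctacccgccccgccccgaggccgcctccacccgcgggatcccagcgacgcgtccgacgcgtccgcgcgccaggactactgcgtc
Nr4a3 held 4 CRE cores between 231 and 143 bases before its start, and Atf3 held 1 that ended 3 bases before it. Hspa1a and Hspb1 held 1 and 2 heat shock pairs. Dtx1 held none of the motifs searched. Windows of other genes with deep falls, not shown, did hold matches. Drc1 held an AP-1 site TGAGTCA and a heat shock pair, and P2rx7 an AP-1 site. Adamts14 held none when the NFAT core GGAAA was left aside. A match is a description of the letters, and binding was not measured.

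**Figure D2:**
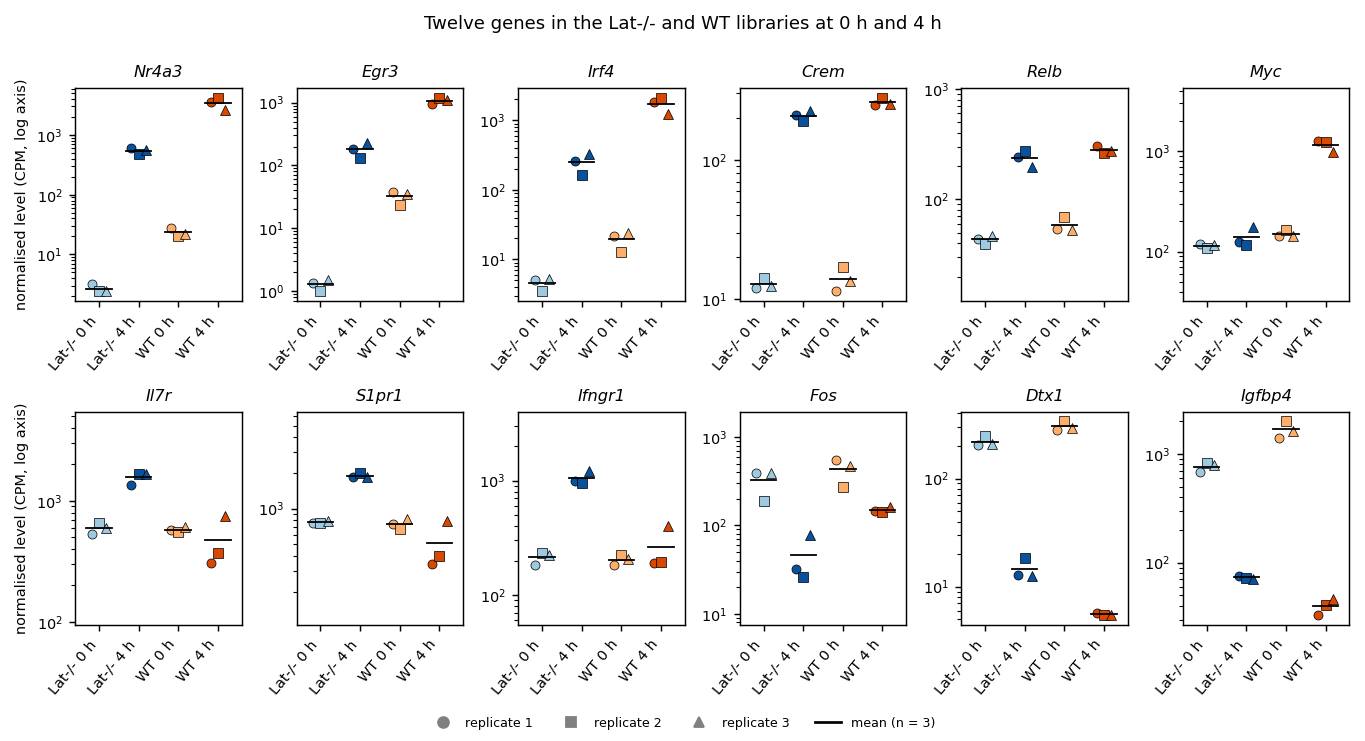
CPM (log axis) of 12 genes in each library, with Lat-/- and WT cells at 0 h and 4 h as points and the mean of 3 libraries as a line. Nr4a3, Egr3, Irf4, Crem, and Relb rose in both genotypes, Myc rose only in the WT libraries, Il7r, S1pr1, and Ifngr1 were highest in the Lat-/- libraries at 4 h, and Fos, Dtx1, and Igfbp4 fell in both.

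The AP-1 family split. Of 13 members, 5 were higher and 2 lower (median log2 fold change 0.83 with undetected genes at their bound), against 6 and 3 in WT cells. Atf3, a stress-induced partner of AP-1 factors, had 0, 3, and 0 reads at 0 h and 14.5, 12.7, and 17.5 CPM at 4 h. Fosl2, which encodes FRA-2, rose from 8.39, 8.48, and 12.7 CPM to 325, 274, and 331 CPM (log2 fold change 4.99 ± 0.28 SE, edgeR adjusted p = 5.76e-10). The small MAF factor Maff rose from 4.39, 2.42, and 4.76 CPM to 28.6, 22.2, and 36.3 CPM (log2 fold change 2.93 ± 0.23 SE, edgeR adjusted p = 5.8e-08). Fosl1, which encodes FRA-1, had no read at 0 h and was at least 8.41-fold higher at 4 h (0.414, 0.0587, and 0.624 CPM). Mafg also rose. Fos and Junb, the classic AP-1 pair, fell instead. Fos went from 394, 190.4, and 390.2 CPM to 32.5, 26.3, and 78.5 CPM (log2 fold change -2.81 ± 0.38 SE, edgeR adjusted p = 1.98e-05). Junb fell from 1665, 741, and 2420 CPM to 421, 375, and 362 CPM (log2 fold change -2.04 ± 0.31 SE, edgeR adjusted p = 7.8e-05). In WT cells Fos went from 432 ± 146 to 150.2 ± 11.2 CPM and Junb from 1403 ± 569 to 763 ± 37.6 CPM. The fall of Junb was the deeper in Lat-/- cells (log2 difference of responses -1.18 ± 0.43 SE, edgeR adjusted p = 0.0423), and that of Fos missed the threshold for this difference (edgeR adjusted p = 0.0546). The difference for Junb was not called without Lat-/- library 3 at 0 h (-0.76) or without WT library 2 at 0 h (-0.89).

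Among 8 interferon regulatory factors, 3 rose and 1 fell (median log2 fold change 0.38), against 2 and 3 in WT cells. Irf4, whose level tracks TCR signal strength and which is needed for effector expansion, went from 5.04, 3.45, and 5.29 CPM to 258, 165, and 324 CPM, a 55-fold rise (log2 fold change 5.78 ± 0.48 SE, edgeR adjusted p = 9.64e-08). The WT level at 4 h was 1725 ± 450.5 CPM, and the Lat-/- rise was 14.3% ± 4.7 of the WT rise. Irf8 rose from 6.81, 4.89, and 6.06 CPM to 62.5, 25.9, and 57.7 CPM (log2 fold change 3.06 ± 0.44 SE, edgeR adjusted p = 3.6e-05). Irf7, the master factor of type I interferon genes, fell from 114, 98.7, and 101 CPM to 48.5, 35.3, and 60.5 CPM (log2 fold change -1.10 ± 0.28 SE, edgeR adjusted p = 0.00525). Without library 2 at 4 h it was under the fold threshold (log2 fold change -0.94). Of 17 helper lineage factors, 2 rose and 2 fell (median 0.04), against 5 and 3 in WT cells. Bcl6, the factor of follicular helper cells, rose from 22.2, 23.4, and 21.3 CPM to 118, 84.1, and 111 CPM (log2 fold change 2.25 ± 0.19 SE, edgeR adjusted p = 1.45e-07). Tbx21, which encodes the TH1 factor T-bet, was at 1.09, 0.419, and 2.03 CPM at 0 h and 6.83, 1.29, and 7.33 CPM at 4 h, and its 4 h library 2 lay within the 0 h range (edgeR adjusted p = 0.0232). Zbtb7b, which encodes ThPOK, fell from 293, 295, and 294 CPM to 86.3, 89.4, and 114 CPM (log2 fold change -1.59 ± 0.17 SE, edgeR adjusted p = 1.33e-06). Foxp3, the factor of regulatory T cells, fell from 24.5, 16.3, and 23.2 CPM to 5.88, 4.23, and 12.1 CPM (log2 fold change -1.51 ± 0.31 SE, edgeR adjusted p = 0.00098).

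Genes of the NF-kappaB pathway rose in both genotypes. Of 16 subunits, inhibitors, and feedback genes, 9 rose and none fell (median log2 fold change 1.13), and 8 rose in WT cells (median 1.12). Relb, a subunit of the noncanonical pathway, stood at 44, 39.9, and 47 CPM at 0 h and 241, 274, and 194 CPM at 4 h (log2 fold change 2.46 ± 0.18 SE, edgeR adjusted p = 2.02e-08). WT cells reached 280.5 ± 23 CPM, and the Lat-/- rise was 86.9% ± 17.9 of the WT rise. Nfkb2, which encodes its partner p100, rose from 64.6, 66.7, and 55.4 CPM to 308, 355, and 316 CPM (log2 fold change 2.41 ± 0.18 SE, edgeR adjusted p = 3.68e-08), 65.7% ± 6.34 of the WT rise. The apoptosis inhibitor Birc3 rose from 93.9, 94.1, and 108 CPM to 262, 253, and 243 CPM (log2 fold change 1.38 ± 0.10 SE, edgeR adjusted p = 2.83e-08), 109% ± 7.02 of the WT rise. For these 3 genes the difference of responses was 0.19 ± 0.24 SE, -0.26 ± 0.25 SE, and 0.07 ± 0.14 SE on the log2 scale, and none was called.

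Other subunits were further from WT cells. Rel, the subunit most tied to TCR signals, rose from 41.7, 46.1, and 53.4 CPM to 238, 184, and 269 CPM (log2 fold change 2.31 ± 0.21 SE, edgeR adjusted p = 2.44e-07), but to 924 ± 190.3 CPM in WT cells (log2 difference of responses -1.73 ± 0.28 SE, edgeR adjusted p = 0.00018). Nfkb1, which encodes p105, rose from 273, 287, and 263 CPM to 629, 643, and 513 CPM and reached 2019 ± 393 CPM in WT cells (log2 difference of responses -1.59 ± 0.21 SE, edgeR adjusted p = 2.05e-05). Nfkbib and Nfkbid, which encode inhibitor proteins, rose as well. Bcl3, a nuclear coactivator of this group, rose from 22.9, 25.5, and 30.5 CPM to 64.9, 60.9, and 52.9 CPM in Lat-/- cells and went from 34.1 ± 3.62 to 25.6 ± 5.77 CPM in WT cells (log2 difference of responses 1.59 ± 0.31 SE, edgeR adjusted p = 0.000838). The deubiquitinase gene Tnfaip3 rose from 201, 116, and 437 CPM to 552, 515, and 728 CPM (log2 fold change 1.28 ± 0.40 SE, edgeR adjusted p = 0.0195), and its 0 h libraries were spread widely. Its log2 fold change was 0.91, under the fold threshold, without library 2 at 0 h and 1.92 without library 3 at 0 h.

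Ligands of the TNF superfamily rose far less than in WT cells. Of 13 ligands, 5 rose and 1 fell (median log2 fold change 0.38 without 1 gene at or under the limit of detection), against 9 and 1 in WT cells, and the Lat-/- response was called below the WT response for 8. Tnf went from 11.8, 7.04, and 18.3 CPM to 51.1, 33.6, and 64.2 CPM (log2 fold change 2.02 ± 0.43 SE, edgeR adjusted p = 0.0015). It reached 638 ± 103 CPM in WT cells, so the Lat-/- rise was 6.01% ± 2.48 of the WT rise (log2 difference of responses -3.19 ± 0.60 SE, edgeR adjusted p = 0.000584). Tnfsf14, which encodes LIGHT, rose from 1.04, 1.49, and 1.63 CPM to 6.21, 3.76, and 8.43 CPM against 207 ± 14.8 CPM in WT cells at 4 h (log2 difference of responses -4.50 ± 0.59 SE, edgeR adjusted p = 2.22e-05). Tnfsf11, which encodes RANKL, rose from 1.78, 1.63, and 4.19 CPM to 30.8, 24.5, and 49.8 CPM (log2 fold change 3.79 ± 0.57 SE, edgeR adjusted p = 5.91e-05). Fasl, the ligand of the death receptor FAS, rose from 13.4, 15.5, and 15.9 CPM to 48.7, 51.7, and 38.2 CPM (log2 fold change 1.65 ± 0.15 SE, edgeR adjusted p = 3.29e-07). Tnfsf4, which encodes OX40L, rose at low level, to 1.16, 2.17, and 1.61 CPM. Tnfsf10, which encodes the death ligand TRAIL, fell from 35, 43.4, and 42 CPM to 15.5, 13.2, and 14.1 CPM (log2 fold change -1.47 ± 0.19 SE, edgeR adjusted p = 1.27e-05).

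Of 12 TNF receptors, 4 rose and none fell (median 0.17 without 1 gene at or under the limit of detection), against 5 and 1 in WT cells. Tnfrsf9, which encodes the costimulator 4-1BB, rose from 2.86, 2.66, and 4.07 CPM to 167, 119, and 159 CPM (log2 fold change 5.55 ± 0.46 SE, edgeR adjusted p = 9.19e-08), 8.78% ± 1.54 of the WT rise. Tnfrsf4, which encodes OX40, rose from 5.63, 4.66, and 8.74 CPM to 38.6, 38.6, and 64.5 CPM (log2 fold change 2.91 ± 0.41 SE, edgeR adjusted p = 3.33e-05). Its fold change did not pass the test for a difference from WT cells (log2 difference of responses 0.03 ± 0.52 SE, edgeR adjusted p = 0.98). Tnfrsf1b, which encodes TNFR2, rose from 91.9, 101, and 115 CPM to 261, 227, and 228 CPM, against 969.8 ± 261 CPM in WT cells at 4 h (log2 difference of responses -2.09 ± 0.24 SE, edgeR adjusted p = 6.17e-06). Tnfrsf26, a less studied member, rose from 72.8, 72, and 85.4 CPM to 170, 179, and 162 CPM in Lat-/- cells and went from 78.8 ± 6.45 to 54.1 ± 16.9 CPM in WT cells (log2 difference of responses 1.70 ± 0.22 SE, edgeR adjusted p = 2.36e-05).

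In the BCL2 family, 4 of 14 genes rose and 1 fell (median -0.03), against 6 and 2 in WT cells. The prosurvival genes Bcl2a1b and Bcl2a1d rose to 11.3, 11.7, and 10.9 CPM and 5.01, 5.52, and 1.93 CPM; these near-identical copies can share reads, so the split between them is uncertain. The proapoptotic gene Bbc3, which encodes PUMA, rose from 13.7, 14.5, and 16.7 CPM to 89.3, 78.2, and 30.1 CPM (log2 fold change 2.16 ± 0.30 SE, edgeR adjusted p = 2.43e-05). In WT cells Bbc3 went from 26 ± 7.83 to 26.5 ± 4.92 CPM (log2 difference of responses 2.11 ± 0.41 SE, edgeR adjusted p = 0.000724). Pmaip1, which encodes NOXA, rose to 8.86, 4.58, and 9.88 CPM. Bcl2 fell from 126, 166, and 212 CPM to 84.1, 68.8, and 83.5 CPM (log2 fold change -1.07 ± 0.17 SE, edgeR adjusted p = 0.000137). The list had no lower gene without library 3 at 0 h (log2 fold change of Bcl2 -0.89), without library 2 at 4 h (-0.998), or with all libraries numbered 3 left out (-0.93). Bcl2l1, which encodes BCL-XL, was at 27, 27.6, and 31.8 CPM at 0 h and 28.6, 24.5, and 26.7 CPM at 4 h and was not called, against a change from 33.1 ± 3.8 to 100.1 ± 5.44 CPM in WT cells (log2 difference of responses -1.71 ± 0.37 SE, edgeR adjusted p = 0.002).

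Genes that answer ERK activity rose in part. Of 12 ERK feedback genes, 6 rose and 1 fell (median log2 fold change 1.02), against 7 and 2 in WT cells. Spry1, which encodes the RAS pathway inhibitor Sprouty 1, rose from 2.76, 1.3, and 4.76 CPM to 35.6, 23.1, and 53.3 CPM (log2 fold change 3.67 ± 0.56 SE, edgeR adjusted p = 7.4e-05). This was 4.96% ± 2.19 of the WT rise (log2 difference of responses -3.20 ± 0.75 SE, edgeR adjusted p = 0.00323). The MAP kinase phosphatase gene Dusp4 rose from 1.33, 0.699, and 1.63 CPM to 24, 15.1, and 29.2 CPM (log2 fold change 4.23 ± 0.58 SE, edgeR adjusted p = 2.21e-05). Dusp5 rose from 44.5, 40.1, and 67.9 CPM to 131, 154, and 102 CPM (log2 fold change 1.36 ± 0.21 SE, edgeR adjusted p = 8.36e-05), and Spry4 went from 0, 0, and 1 reads at 0 h to 2.15, 2.29, and 1.67 CPM. Spred1 rose as well. Dusp10, which acts on JNK and p38, rose from 117, 112, and 133 CPM to 260.1, 302, and 244 CPM in Lat-/- cells and went from 99.5 ± 7.54 to 78.9 ± 16.8 CPM in WT cells (log2 difference of responses 1.49 ± 0.19 SE, edgeR adjusted p = 1.41e-05). Dusp1 fell from 168, 82.5, and 258 CPM to 74.5, 55.2, and 74.3 CPM (log2 fold change -1.29 ± 0.32 SE, edgeR adjusted p = 0.00434). It was the only lower gene of the list, and was not called without library 3 at 0 h (log2 fold change -0.88) or with all libraries numbered 3 left out (-0.94).

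Feedback genes of cAMP and G protein signaling rose. Of 13 genes, 9 rose and none fell (median 1.21), against 7 in WT cells (median 1.59). Crem, a CREB family repressor induced by cAMP and calcium (ENSMUSG00000063889.16, chromosome 18, 3266048 to 3337748, minus strand), stood at 12, 14.3, and 12.4 CPM at 0 h and 209.8, 190.5, and 224 CPM at 4 h. This 16.4-fold rise (log2 fold change 4.03 ± 0.20 SE, edgeR adjusted p = 1.45e-10) was 79.6% ± 6.96 of the WT rise, and the responses did not differ beyond their error (log2 difference of responses -0.20 ± 0.25 SE, edgeR adjusted p = 0.603). Rgs16, a regulator of G protein signaling, rose from 0.839, 0.419, and 2.15 CPM to 36.2, 21.3, and 26.5 CPM (log2 fold change 4.60 ± 0.56 SE, edgeR adjusted p = 7.43e-06). The kinase gene Sik1 rose from 21.3, 14.1, and 29.5 CPM to 126, 103, and 89.9 CPM (log2 fold change 2.32 ± 0.29 SE, edgeR adjusted p = 9.65e-06). Rgs10 rose from 152, 160.4, and 146 CPM to 532, 693, and 442 CPM but went from 284 ± 58.8 to 259.7 ± 71.6 CPM in WT cells (log2 difference of responses 2.00 ± 0.27 SE, edgeR adjusted p = 3.08e-05). Rgs2 rose from 67.7, 61.9, and 109 CPM to 172, 189.5, and 170.5 CPM but went from 86.6 ± 21.1 to 84.2 ± 10.4 CPM in WT cells (log2 difference of responses 1.20 ± 0.30 SE, edgeR adjusted p = 0.00535). Pde4b, which encodes a cAMP phosphodiesterase, rose from 147, 148, and 168 CPM to 347, 364, and 364 CPM (log2 fold change 1.23 ± 0.17 SE, edgeR adjusted p = 1.98e-05), and Gem, Pde4a, and Rgs1 were called higher at low or more variable levels.

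Few genes of the TCR complex and of the LAT signalosome passed the fold threshold. Of 20, none rose and 1 fell (median -0.40), against 3 and 4 in WT cells. The Lat-/- counts were near the share over all genes tested, 3.08% higher and 3.62% lower. By adjusted p alone, without a fold threshold, 10 were lower. The gene that passed the fold threshold was Themis, a TCR signaling modulator, which went from 273, 357, and 317 CPM to 170.2, 153, and 144 CPM. Its log2 fold change lay at the threshold (-1.0 ± 0.19 SE), and it was not called by DESeq2, with RLE factors, or with its own spread. It was also not called without library 2 at 0 h (-0.92), without library 3 at 4 h (-0.97), or with all libraries numbered 3 left out (-0.96). Of 18 negative regulators, 2 rose (median 0.08), against 5 higher and 3 lower in WT cells. Cblb, the ubiquitin ligase that sets the need for costimulation, rose from 173, 174, and 179 CPM to 534, 515, and 542 CPM (log2 fold change 1.62 ± 0.18 SE, edgeR adjusted p = 2.49e-06), 70.3% ± 2.68 of the WT rise. Ubash3b, which encodes the phosphatase STS-1, rose from 25.2, 20.8, and 29.2 CPM to 77.5, 61, and 79.6 CPM (log2 fold change 1.56 ± 0.18 SE, edgeR adjusted p = 4.57e-06). The WT level at 4 h was 691 ± 108 CPM (log2 difference of responses -2.42 ± 0.26 SE, edgeR adjusted p = 2.57e-06). None of 9 NFAT and calcineurin genes was called (median -0.02), and 1 rose and 3 fell in WT cells. Nfatc1, whose short form is induced by NFAT itself, was at 176, 169, and 174 CPM at 0 h and 293, 232, and 279 CPM at 4 h, against a change from 179 ± 36 to 1137 ± 228 CPM in WT cells (log2 difference of responses -2.03 ± 0.23 SE, edgeR adjusted p = 6.17e-06).

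Cytokine genes were switched on from low levels. Of 16, 9 were called higher and none lower (median 2.02 with undetected genes at their bound), against 11 and 2 in WT cells, and without Lat-/- library 3 at 4 h the count was 6. Lif, which encodes leukemia inhibitory factor, rose from 0.345, 0.14, and 0.447 CPM to 11.7, 8.22, and 24.3 CPM (log2 fold change 5.54 ± 0.50 SE, edgeR adjusted p = 2.53e-07), 49.7% ± 29.2 of the WT rise. Il2, the growth factor of activated T cells, had 0, 1, and 0 reads at 0 h and 0.455, 0.528, and 1.67 CPM at 4 h, against 31.4, 30.3, and 25.5 CPM in WT cells, a rise of 3% ± 2.35 of the WT rise. Tgfb1, which encodes TGF-beta 1, rose from 115, 114, and 106 CPM to 225, 253, and 226 CPM (log2 fold change 1.09 ± 0.12 SE, edgeR adjusted p = 1.53e-06). Ifng, which encodes interferon gamma, went from 0, 0.28, and 1.06 CPM to 13.5, 1.94, and 5.78 CPM (log2 fold change 3.95 ± 0.84 SE, edgeR adjusted p = 0.00147), with library 1 highest and library 2 lowest. The WT libraries held 0.841, 0.962, and 0.792 CPM at 4 h.

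Several of these genes rested on library 3. Il17a was at 0, 0.293, and 3.8 CPM at 4 h, Il13 at 0, 0, and 1.04 CPM from no read at 0 h, and Il10 at 2.28, 2, and 7.13 CPM. Il21, the cytokine of follicular helper cells, was at 1.78, 1.64, and 5.57 CPM from 0.247, 0, and 0.325 CPM (log2 fold change 3.93 ± 0.70 SE, edgeR adjusted p = 0.000333), and Il4 at 1.74, 0.587, and 2.44 CPM from 0.444, 0.28, and 0.447 CPM (edgeR adjusted p = 0.0206). In Il17a and Il13 most or all reads of the group came from library 3, and neither was called without it. The log2 fold change of Il10 was 3.69, and 6.15 without library 3 at 0 h.

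Of 9 chemokine genes, 6 rose and none fell (median 4.57 with undetected genes at their bound), against 6 and 1 in WT cells. Ccl4 and Ccl3, inflammatory CC chemokines, rose. Ccl4 went from 0.148, 0.0932, and 1.1 CPM to 26.9, 8.51, and 24.8 CPM (log2 fold change 5.42 ± 0.67 SE, edgeR adjusted p = 8.44e-06). Ccl3 went from 0, 0, and 0.854 CPM to 12.4, 4.58, and 12.1 CPM (log2 fold change 4.98 ± 0.84 SE, edgeR adjusted p = 0.000192). All 0 h reads of Ccl3 were in library 3, and its log2 fold change without that library was 10.8, a value set by the prior count. Xcl1, which encodes lymphotactin, rose from 0.494, 0.28, and 0.407 CPM to 11.4, 6.28, and 15.3 CPM against 228 ± 33.3 CPM in WT cells at 4 h, and the response difference missed the threshold with its own spread (log2 difference of responses -2.54 ± 1.32 SE, edgeR adjusted p = 0.155). Cxcl10, an interferon gamma-induced ligand of CXCR3, rose from 0.444, 0.0932, and 0.366 CPM to 9.06, 2.17, and 7.44 CPM (log2 fold change 4.37 ± 0.62 SE, edgeR adjusted p = 3.41e-05). Ccl1, a ligand of CCR8, had no read at 0 h and was at least 43.2-fold higher at 4 h (2.48, 0.293, and 2.76 CPM). In Ccl4, Ccl3, Cxcl10, and Ccl1, library 2 was the lowest of the 4 h libraries.

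Among 15 CD28 family and checkpoint receptor genes, 6 rose and 1 fell (median 0.95), against 10 and 2 in WT cells. Cd28 itself rose from 9.28, 10.2, and 12.2 CPM to 33.5, 27.1, and 32.8 CPM (log2 fold change 1.58 ± 0.21 SE, edgeR adjusted p = 1.98e-05), 84.6% ± 14.4 of the WT rise. Pdcd1, which encodes PD-1, rose from 2.52, 2.75, and 5.37 CPM to 42.7, 28.8, and 52 CPM (log2 fold change 3.54 ± 0.46 SE, edgeR adjusted p = 1.22e-05). This was 8.14% ± 2.53 of the WT rise (log2 difference of responses -2.11 ± 0.60 SE, edgeR adjusted p = 0.0116). Its ligand gene Cd274 rose from 40.4, 43.1, and 45 CPM to 231, 114, and 197 CPM (log2 fold change 2.10 ± 0.37 SE, edgeR adjusted p = 0.000319). Icos, Tigit, and Ctla4 rose to 5.01, 3.52, and 8.64, 5.59, 5.58, and 19.1, and 3.48, 1.82, and 8.01 CPM, with library 3 highest in each. Without library 3 at 4 h, Ctla4 was not called (log2 fold change 0.95) and Tigit was at 1.40 in place of 2.25. The adhesion receptor gene Cd226 fell from 60.4, 68.6, and 81.3 CPM to 23.5, 21.4, and 21.9 CPM (log2 fold change -1.63 ± 0.22 SE, edgeR adjusted p = 1.79e-05). Among 13 activation antigens, 3 rose and 1 fell (median 0.47), against 6 and 1 in WT cells. Cd69, an early marker that retains cells in lymphoid tissue, rose from 88.7, 124, and 163 CPM to 497, 404, and 396 CPM (log2 fold change 1.81 ± 0.32 SE, edgeR adjusted p = 0.000278), 20.8% ± 3.82 of the WT rise. Icam1, an adhesion molecule, rose from 28.3, 31.9, and 34.2 CPM to 69.6, 42.6, and 82.3 CPM (log2 fold change 1.06 ± 0.25 SE, edgeR adjusted p = 0.00362) and went from 31.6 ± 2.5 to 26.6 ± 9.97 CPM in WT cells (log2 difference of responses 1.29 ± 0.36 SE, edgeR adjusted p = 0.0102). Its call was lost without library 1 at 0 h (log2 fold change 0.97), library 1 at 4 h (0.98), or library 3 at 4 h (0.84). Itgal, which encodes a chain of its receptor LFA-1, fell from 594, 589, and 494 CPM to 261, 247, and 275 CPM (log2 fold change -1.08 ± 0.14 SE, edgeR adjusted p = 1.81e-05).

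Genes of ribosome production were at similar levels at both times. None of 26 ribosome biogenesis genes was called in Lat-/- cells (median log2 fold change 0.21), and 24 rose in WT cells (median 1.80), with the difference of responses called for 24. Myc, the factor that drives growth of activated T cells, was at 119, 109, and 115 CPM at 0 h and 126, 116, and 175 CPM at 4 h, and was not called (log2 fold change 0.30 ± 0.16 SE, edgeR adjusted p = 0.176). The WT libraries went from 144, 164, and 143 CPM to 1261, 1244, and 976 CPM, and the responses differed (log2 difference of responses -2.67 ± 0.23 SE, edgeR adjusted p = 6.93e-07). Of 10 genes of the MYC and MAX network 1 rose (median 0.57), the MYC antagonist Mxd1, which went from 23.7, 22.3, and 28.5 CPM to 65.3, 41.6, and 62 CPM (log2 fold change 1.20 ± 0.18 SE, edgeR adjusted p = 5.36e-05). In WT cells it stood at 34.6 ± 4.9 CPM at 4 h (log2 difference of responses 1.14 ± 0.25 SE, edgeR adjusted p = 0.00202). Nop56, a component of small nucleolar ribonucleoproteins, was at 105, 109, and 104 and 97.2, 101, and 110.4 CPM, against a change from 105 ± 6.89 to 351 ± 42.3 CPM in WT cells (log2 difference of responses -1.79 ± 0.17 SE, edgeR adjusted p = 1.26e-06). Ncl, which encodes nucleolin, moved most among the abundant members, from 851, 947, and 843 CPM to 1480, 1543, and 1436 CPM (log2 fold change 0.78 ± 0.12 SE), still under the fold threshold.

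Metabolic genes were raised in few cases. Of 18 glycolysis genes, 3 rose and 1 fell (median -0.11), against 8 and 1 in WT cells. Hk2, which encodes hexokinase 2, rose from 0.197, 0.0932, and 0.366 CPM to 2.4, 2.99, and 3.17 CPM (log2 fold change 3.65 ± 0.76 SE, edgeR adjusted p = 0.00124). The lactate transporter gene Slc16a3 rose from 1.58, 1.63, and 1.71 CPM to 7.61, 7.34, and 10.5 CPM (log2 fold change 2.39 ± 0.25 SE, edgeR adjusted p = 1.16e-06). Its relative Slc16a1 rose from 33.7, 41.3, and 41.9 CPM to 86.8, 79.9, and 83.9 CPM (log2 fold change 1.12 ± 0.17 SE, edgeR adjusted p = 7.26e-05). Slc2a1, which encodes the glucose transporter GLUT1, was at 54.1, 57, and 57.9 and 53.7, 55.5, and 61.3 CPM (log2 difference of responses -1.13 ± 0.15 SE, edgeR adjusted p = 2.05e-05). Gapdh was counted at only 9.58, 8.25, and 12.7 CPM at 0 h and 1.53, 3.17, and 2.71 CPM at 4 h, and reads shared with its many pseudogenes make this call uncertain. Of 9 polyamine genes only the rate-limiting enzyme gene Odc1 rose (median 0.47), against 5 in WT cells. It went from 26.8, 21.6, and 35.6 CPM to 298, 279, and 262 CPM (log2 fold change 3.34 ± 0.27 SE, edgeR adjusted p = 7.73e-08), 35.3% ± 2.51 of the WT rise.

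Of 18 ATF4 targets and genes of amino acid and one-carbon metabolism, none rose and 4 fell (median -0.30), whereas 5 rose and 1 fell in WT cells. Phgdh, the entry enzyme of serine synthesis, fell from 23.6, 28.9, and 24.3 CPM to 11.3, 12.1, and 10.5 CPM (log2 fold change -1.16 ± 0.25 SE, edgeR adjusted p = 0.00154). Psph, the last enzyme of that pathway, fell from 36.2, 45.2, and 34.6 CPM to 15.7, 17.8, and 19.8 CPM (log2 fold change -1.10 ± 0.16 SE, edgeR adjusted p = 5.1e-05). Without library 2 at 0 h it was just under the fold threshold (log2 fold change -0.99). Pycr1, of proline synthesis, fell from 3.31, 1.96, and 2.2 CPM to 0.124, 0.763, and 0.468 CPM (log2 difference of responses -3.11 ± 0.82 SE, edgeR adjusted p = 0.00726), and Cebpb fell to 1.08, 1.88, and 0.52 CPM. The log2 fold change of Cebpb was -2.04, and it was -1.31 without library 3 at 0 h and -0.96, not called, with all libraries numbered 3 left out. Among 24 genes of cholesterol and fatty acid synthesis, 2 rose and 2 fell (median 0.08), against 7 and 4 in WT cells. Cyp51 rose from 31.6, 54.8, and 34.5 CPM to 80.7, 98.2, and 92.6 CPM (log2 fold change 1.19 ± 0.20 SE, edgeR adjusted p = 0.00015). Hmgcs1 rose from 32.5, 43.1, and 39.8 CPM to 70.2, 84.3, and 97.8 CPM (log2 fold change 1.15 ± 0.14 SE, edgeR adjusted p = 7.96e-06). Mvd and Dhcr7 of the same pathway fell to 14.5, 16.1, and 13 and 23.2, 23.4, and 22.2 CPM. Without library 2 at 0 h, 4 genes of the list were higher and 1 lower, with Dhcr7 at a log2 fold change of -0.94. None of 5 sterol efflux genes was called (median 0.22), and 3 fell in WT cells. Abcg1, a sterol exporter, was at 172, 166, and 184 CPM at 0 h and 302, 351, and 209.5 CPM at 4 h, and the responses differed (log2 difference of responses 1.59 ± 0.21 SE, edgeR adjusted p = 1.88e-05).

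Receptors of resting naive cells rose in Lat-/- cells. Il7r, which encodes the receptor of the survival cytokine IL-7 (ENSMUSG00000003882.5, chromosome 15, 9505788 to 9530176, minus strand), went from 528, 654, and 599 CPM to 1361, 1659, and 1671 CPM (log2 fold change 1.42 ± 0.29 SE, edgeR adjusted p = 0.00113). In WT cells it went from 576 ± 27.6 to 477 ± 239.6 CPM (log2 difference of responses 1.67 ± 0.41 SE, edgeR adjusted p = 0.00438). S1pr1, the receptor that lets T cells leave lymphoid organs (ENSMUSG00000045092.8, chromosome 3, 115710433 to 115715072, minus strand), went from 751, 758, and 786 CPM to 1827, 1999, and 1860 CPM (log2 fold change 1.33 ± 0.21 SE, edgeR adjusted p = 0.000117). In WT cells it went from 741 ± 74.5 to 511 ± 240.2 CPM (log2 difference of responses 1.84 ± 0.30 SE, edgeR adjusted p = 0.000164). Every Lat-/- library at 4 h lay above every other library of the 0 h and 4 h groups for both genes. In WT library 3 at 4 h these genes were less lowered than in libraries 1 and 2, and without it the differences were 2.17 and 2.31. Of 10 homing receptors, 2 rose and 3 fell (median 0.20), against none and 4 in WT cells, and the difference of responses was called higher for 7. The gut homing integrin gene Itgb7 fell from 1381, 1439, and 1203 CPM to 406, 559, and 498 CPM (log2 fold change -1.44 ± 0.18 SE, edgeR adjusted p = 1.07e-05). Ccr9 fell from 16, 15.9, and 12.4 CPM to 4.22, 3.76, and 2.5 CPM (log2 fold change -2.06 ± 0.31 SE, edgeR adjusted p = 6.42e-05), and Ly6c1 fell to 215, 161, and 314 CPM, at the fold threshold with its own spread.

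Of 14 quiescence factors, 2 rose and none fell (median 0.60), against 1 and 3 in WT cells, and the difference was called higher for 6. Klf3 went from 313, 316, and 415 CPM to 738, 699, and 725 CPM (log2 fold change 1.07 ± 0.25 SE, edgeR adjusted p = 0.00323). The repressor gene Bach2 rose from 105, 94.6, and 125 CPM to 219, 211, and 236 CPM (log2 fold change 1.06 ± 0.19 SE, edgeR adjusted p = 0.000368). Both were close to the fold threshold, and neither was called with library totals in place of TMM factors or without library 2 at 0 h (log2 fold changes 0.98 and 0.95). Klf3 was also not called without library 1 at 0 h (0.98), and Bach2 without library 3 at 4 h (0.99). Klf2, the factor that drives S1pr1, was at 529.5, 477, and 608 CPM at 0 h and 816, 1009, and 899 CPM at 4 h, under the fold threshold, with 198, 192, and 607 CPM in WT cells at 4 h (log2 difference of responses 1.52 ± 0.42 SE, edgeR adjusted p = 0.00991). Without WT library 3 at 4 h this difference was 2.30. Tcf7, which encodes TCF-1, was at 2165 ± 34.1 CPM and 2153 ± 259 CPM in Lat-/- cells, and went from 2070 ± 80.3 to 729 ± 316 CPM in WT cells (log2 difference of responses 1.50 ± 0.28 SE, edgeR adjusted p = 0.000543). Without that library it was 1.92. Of 15 PI3K brakes and starvation response genes, 4 rose and 1 fell (median 0), against none and 4 in WT cells. Arrdc3, an arrestin gene repressed by growth signals, rose from 41.4, 26.1, and 35.8 CPM to 102, 90.9, and 123 CPM (log2 fold change 1.63 ± 0.29 SE, edgeR adjusted p = 0.000283). Irs2, of insulin signaling, rose from 18.1, 11.2, and 23.8 CPM to 64.7, 48.1, and 44.8 CPM (log2 fold change 1.59 ± 0.27 SE, edgeR adjusted p = 0.00017). Ccng2 and Ulk1, FOXO targets of cell cycle exit and autophagy, rose to 244, 206, and 227 and 79, 81.6, and 87.3 CPM. Ddit4, an mTORC1 inhibitor, fell from 145, 349, and 262 CPM to 69, 64.9, and 59 CPM (log2 fold change -1.95 ± 0.26 SE, edgeR adjusted p = 2.16e-05).

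Of the 322 genes called higher in Lat-/- cells and not called in WT cells, 125 were also called for the difference, and of 236 called lower, 54. Ifngr1, the ligand-binding chain of the interferon gamma receptor, was among the largest and most even of the 125. It stood at 184, 234, and 223 CPM at 0 h and 981, 961, and 1212 CPM at 4 h, a 4.99-fold rise (log2 fold change 2.32 ± 0.23 SE, edgeR adjusted p = 6.94e-07). In WT cells it went from 203 ± 20.5 to 262 ± 122 CPM (log2 difference of responses 1.93 ± 0.31 SE, edgeR adjusted p = 0.000155). Without WT library 3 at 4 h the difference was 2.40. P2ry10, a receptor of lysophospholipids, went from 144, 187, and 201 CPM to 815, 852, and 944 CPM (log2 fold change 2.31 ± 0.23 SE, edgeR adjusted p = 9.47e-07). Ikzf4, which encodes the Ikaros family factor Eos, rose from 6.91, 3.77, and 5.86 CPM to 30.1, 29.9, and 24.1 CPM (log2 fold change 2.37 ± 0.28 SE, edgeR adjusted p = 4.33e-06). Tbc1d4, a regulator of glucose transporter traffic, went from 48.5, 53.1, and 62.5 CPM to 226, 202, and 230 CPM, Rras2, a RAS relative bound to the TCR, from 73.8, 104, and 89.5 CPM to 310.1, 356, and 249.9 CPM, and Klf6 from 272, 289, and 393 CPM to 1536, 823, and 734 CPM, with library 1 highest.

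Interferon genes moved in both directions. Of 23 interferon-stimulated genes, 2 rose and 11 fell (median log2 fold change -0.99), against none and 21 in WT cells (median -2.87), and the difference was called higher for 16. Genes of the type I response fell in both genotypes. Isg15, a ubiquitin-like modifier, fell from 47.5, 51.1, and 39.2 CPM to 11.6, 14, and 14.5 CPM (log2 fold change -1.76 ± 0.26 SE, edgeR adjusted p = 4.51e-05). Usp18, its protease, fell from 39.9, 47.5, and 39.2 CPM to 15.5, 11.7, and 20.2 CPM (log2 fold change -1.40 ± 0.24 SE, edgeR adjusted p = 0.000207). Ifit1 fell from 53.4, 59.2, and 46.1 CPM to 23.6, 14.3, and 14.3 CPM (log2 fold change -1.58 ± 0.30 SE, edgeR adjusted p = 0.000496). In WT cells Ifit1 went from 49.9 ± 4.54 to 2.8 ± 0.812 CPM and Usp18 from 42.2 ± 6.82 to 3.06 ± 0.878 CPM, so the falls were the shallower in Lat-/- cells (2.56 ± 0.44 SE, edgeR adjusted p = 0.000251, and 2.36 ± 0.35 SE, edgeR adjusted p = 6.82e-05, on the log2 scale). Rsad2, Mx1, Mx2, Oas1a, Oas2, Oas3, Zbp1, and Ifi44 fell too.

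Some genes known to be induced by interferon gamma rose in Lat-/- cells, and they form no list of their own, since part of them were named by rule and part were chosen after their values were seen. Irf1, a factor induced by interferon gamma (ENSMUSG00000018899.16, chromosome 11, 53770014 to 53778374, plus strand), was at 348, 363, and 431 CPM at 0 h and 1100, 483, and 849 CPM at 4 h in Lat-/- cells, and at 319, 318, and 359 CPM and 157, 109, and 165 CPM in WT cells. It was called higher in Lat-/- cells (log2 fold change 1.11 ± 0.27 SE, edgeR adjusted p = 0.00394) and lower in WT cells, and the responses differed (log2 difference of responses 2.30 ± 0.38 SE, edgeR adjusted p = 0.000199). The guanylate-binding protein genes Gbp2 and Gbp5 rose. Gbp2 went from 152, 204, and 144 CPM to 745, 303, and 792 CPM (log2 fold change 1.90 ± 0.46 SE, edgeR adjusted p = 0.00403). Gbp5 went from 35.9, 39.99, and 35 CPM to 147, 45.3, and 139 CPM (log2 fold change 1.6 ± 0.42 SE, edgeR adjusted p = 0.00721). The immunity-related GTPase genes Igtp and Irgm1 rose as well. Igtp went from 382, 521, and 383 CPM to 1384, 555, and 1342 CPM (log2 fold change 1.37 ± 0.38 SE, edgeR adjusted p = 0.00967). Irgm1 went from 19.99, 23.6, and 21.6 CPM to 79, 26.8, and 66.5 CPM (log2 fold change 1.42 ± 0.37 SE, edgeR adjusted p = 0.00664). Library 2 was the lowest of the 4 h libraries in each, and near the 0 h range for Gbp5, Igtp, and Irgm1. Without it the log2 fold changes were 2.21 for Gbp2, 1.95 for Gbp5, 1.67 for Igtp, 1.74 for Irgm1, and 1.36 for Irf1. Gbp11, of the same family as Gbp5, was not called in Lat-/- cells (log2 fold change -0.04).

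The 12 genes higher in Lat-/- and lower in WT cells were Irf1, Gbp3, Gbp5, Igtp, Irgm1, Iigp1, Tgtp1, Gm15675, Itih5, Chl1, Spag5, and Igha. In the 9 of them with a mean of at least 50 counts, Lat-/- library 2 was the lowest at 4 h in 7 and lay above every 0 h library in 8. The exception was Iigp1, at 51.4, 57.8, and 51.6 CPM at 0 h and 200.2, 46.7, and 188 CPM at 4 h (log2 fold change 1.46 ± 0.52 SE, edgeR adjusted p = 0.039). Without library 2 at 4 h its log2 fold change was 1.86, against 1.44 with it. Library 2 was also the lowest of the 4 h libraries for Ifng and Tbx21, and their part in the result was not tested. Tgtp1 and the GBP and GTPase genes belong to families of similar sequence that can share reads. Without Lat-/- library 1 at 4 h, Irf1 fell under the fold threshold, to a log2 fold change of 0.80, and Itih5 to 0.58. Itih5 was also not called without library 1 at 0 h (0.89) or library 2 at 0 h (0.92), and was at 1.752 with all libraries numbered 3 left out. The 4 genes that went the other way were Angptl2, Mcoln2, Piezo1, and Kcnk5. Angptl2, an angiopoietin-like secreted factor, went from 3.6, 2.94, and 6.67 CPM to 2.4, 0.88, and 2.86 CPM in Lat-/- cells against a change from 2.15 ± 0.612 to 42.2 ± 3.77 CPM in WT cells (log2 difference of responses -5.37 ± 0.52 SE, edgeR adjusted p = 1.39e-06). Its Lat-/- call was lost without library 3 at 0 h (log2 fold change -0.65), without library 2 at 4 h (-0.75), and with all libraries numbered 3 left out (-0.93).

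**Figure D3:**
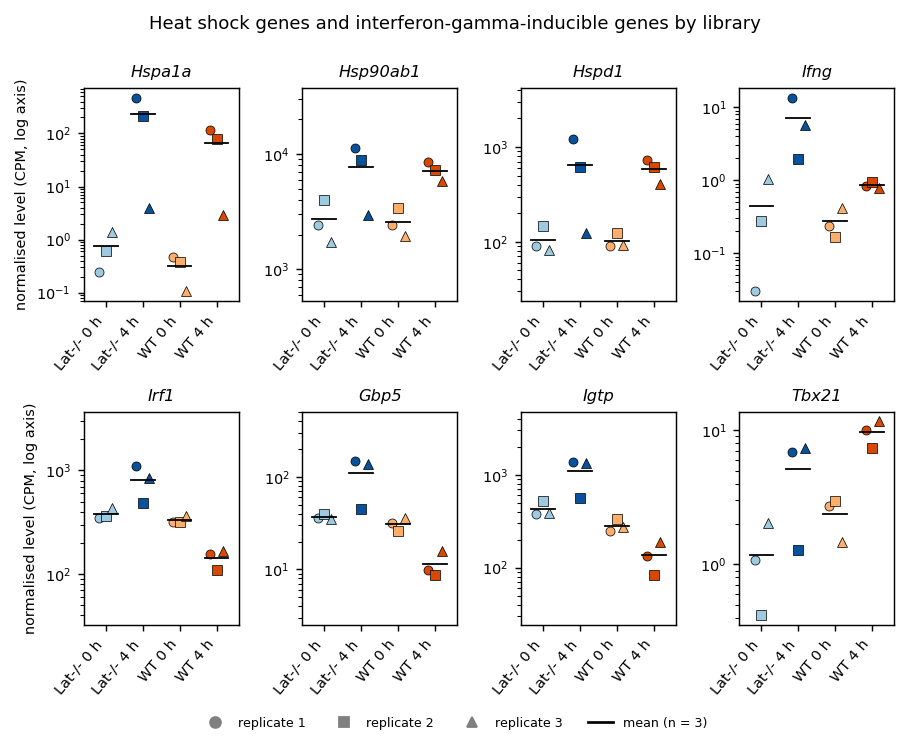
CPM (log axis) of 8 genes in each Lat-/- and WT library at 0 h and 4 h, with replicates told apart by marker shape and levels of 0 drawn at the bottom. Hspa1a, Hsp90ab1, and Hspd1 were high in libraries 1 and 2 at 4 h and low in library 3, whereas Ifng, Irf1, Gbp5, Igtp, and Tbx21 were lowest in Lat-/- library 2.

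Heat shock genes held some of the highest fold changes and varied widely between libraries. Of 16 heat shock proteins and chaperones, 8 rose and none fell (median 1.17), against 11 in WT cells (median 1.58). Hspa1a, the inducible HSP70 chaperone (ENSMUSG00000091971.3, chromosome 17, 34969190 to 34972156, minus strand), was at 0.247, 0.606, and 1.38 CPM at 0 h and 471, 212, and 3.95 CPM at 4 h (log2 fold change 8.23 ± 1.41 SE, edgeR adjusted p = 0.000218). Its copy Hspa1b, with which it can share reads, was at 1.97, 4.43, and 3.78 and 794, 338, and 7.59 CPM, and Hspb1 had 0, 1, and 1 reads at 0 h and 14.6, 4.29, and 0.052 CPM at 4 h. The WT libraries had the same order, with Hspa1a at 117, 77.6, and 2.87 CPM at 4 h. The mitochondrial chaperone gene Hspd1 went from 89.2, 145, and 81.1 CPM to 1220, 615, and 125 CPM (log2 fold change 2.66 ± 0.51 SE, edgeR adjusted p = 0.000597). Hsp90ab1, an HSP90 chaperone, rose from 2437, 3980, and 1737 CPM to 11380, 8864, and 2951 CPM (log2 fold change 1.53 ± 0.38 SE, edgeR adjusted p = 0.00448). In all 8 genes called, library 3 was the lowest at 4 h, and it lay above every 0 h library in 3 of the 8. Without library 3 at 4 h the list held 10 higher genes, and the log2 fold changes were 8.78 for Hspa1a, 3.13 for Hspd1, and 1.90 for Hsp90ab1, against 8.202, 2.64, and 1.51 with it. Hspa5, the chaperone of the endoplasmic reticulum, had an even spread, from 469, 527, and 595 CPM to 785, 714, and 778 CPM, and was not called, against a change from 599 ± 27 to 2390 ± 249.7 CPM in WT cells (log2 difference of responses -1.48 ± 0.21 SE, edgeR adjusted p = 4.7e-05).

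Among the other genes with the highest rises, Cd24a, a surface glycoprotein, went from 0.247, 0.0466, and 0.325 CPM to 26, 17.4, and 27 CPM (log2 fold change 6.79 ± 0.42 SE, edgeR adjusted p = 2.29e-09), 11.7% ± 2.64 of the WT rise. Bcat1, which encodes the cytosolic branched-chain aminotransferase, went from 0.0494, 0.0466, and 0.163 CPM to 10.7, 8.69, and 9.21 CPM (log2 fold change 6.67 ± 0.88 SE, edgeR adjusted p = 1.62e-05). Ncs1, a neuronal calcium sensor, rose from 0.0987, 0.0932, and 0.0407 CPM to 7.95, 5.28, and 6.24 CPM (log2 fold change 6.36 ± 0.83 SE, edgeR adjusted p = 1.41e-05). Both had almost no reads at 0 h. Ccr8, the receptor of CCL1, went from 0.642, 0.839, and 0.976 CPM to 52.8, 39.7, and 30.1 CPM (log2 fold change 5.64 ± 0.36 SE, edgeR adjusted p = 3.83e-09). Sema7a, a membrane-bound semaphorin, rose from 1.68, 1.21, and 2.48 CPM to 98.7, 80.5, and 106 CPM (log2 fold change 5.74 ± 0.51 SE, edgeR adjusted p = 2.12e-07). This was 8.09% ± 1.15 of the WT rise (log2 difference of responses -3.04 ± 0.67 SE, edgeR adjusted p = 0.00202). Khdrbs3 and Hsf2bp were raised to 5.17, 5.34, and 9.62 and 6.54, 4.93, and 3.28 CPM. All 5 reads of Hsf2bp at 0 h were in library 3, so its fold change depends on that library. All 15 genes with the highest rises were also called higher in WT cells, by DESeq2, and with their own spread.

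The 15 genes with the deepest falls were all lower in WT cells as well, and were called by DESeq2 and with their own spread. Dtx1 (ENSMUSG00000029603.15, chromosome 5, 120680202 to 120711927, minus strand) was at 202, 246, and 210.4 CPM at 0 h and 12.7, 18.5, and 12.7 CPM at 4 h, a fall of 14.8-fold (log2 fold change -3.89 ± 0.19 SE, edgeR adjusted p = 1.45e-10). Igfbp4, which encodes a binding protein of insulin-like growth factors, fell from 678, 823, and 784 CPM to 76.1, 72.8, and 70.3 CPM (log2 fold change -3.36 ± 0.22 SE, edgeR adjusted p = 4.55e-09). The transporter gene Slc16a5 fell from 294, 296, and 308 CPM to 23.1, 24.4, and 28.7 CPM (log2 fold change -3.54 ± 0.17 SE, edgeR adjusted p = 1.19e-10). No 4 h library of these 3 genes came near a 0 h library. In WT cells the falls were deeper, to 5.56 ± 0.127 CPM, 40.2 ± 6.92 CPM, and 2.11 ± 0.333 CPM (log2 difference of responses 1.85 ± 0.26 SE, edgeR adjusted p = 3.42e-05). P2rx7, the ATP-gated channel, fell from 19.9, 28.1, and 33.1 CPM to 2.4, 1.82, and 2.5 CPM (log2 fold change -3.56 ± 0.40 SE, edgeR adjusted p = 3.01e-06). Drc1, of the ciliary dynein regulatory complex, fell from 15.6, 25.7, and 20.8 CPM to 1.57, 1.11, and 0.468 CPM (log2 fold change -4.24 ± 0.33 SE, edgeR adjusted p = 4.35e-08). Adamts14, a secreted protease, fell from 28.4, 20.8, and 21.7 CPM to 2.19, 2.05, and 1.46 CPM (log2 fold change -3.61 ± 0.32 SE, edgeR adjusted p = 2.12e-07). The remaining falls were those of Gm4956, Armc3, Kcnh3, Scg5, Pde11a, Ampd1, Ksr2, Sorcs2, and Mcoln3, from 0 h means of 5.72 ± 2.02 CPM for the first to 31.6 ± 0.988 CPM for Sorcs2.

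Smaller lists were as follows. Of 12 SOCS and STAT genes, 2 rose and 2 fell (median 0.37), against 3 and 3 in WT cells. Pim1, a kinase gene induced by STAT5, rose from 226, 183, and 264 CPM to 439, 466, and 488 CPM (log2 fold change 1.07 ± 0.13 SE, edgeR adjusted p = 8.85e-06). Stat5b rose from 265, 243, and 269 CPM to 552, 554, and 528 CPM (log2 fold change 1.09 ± 0.13 SE, edgeR adjusted p = 8.11e-06), with a level of 266 ± 43.4 CPM in WT cells at 4 h; neither was called with library totals. Pim1 was also not called without library 2 at 0 h (log2 fold change 0.92). Socs3, a cytokine signal inhibitor, fell from 366, 296, and 456 CPM to 135, 106, and 147 CPM (log2 fold change -1.50 ± 0.26 SE, edgeR adjusted p = 0.000202), and Socs2 fell at low level and missed the threshold with its own spread (edgeR adjusted p = 0.0568). Of 16 genes of G1, 3 rose and 1 fell (median -0.44), against 3 and 5 in WT cells. Cdkn1a, which encodes the CDK inhibitor p21, rose from 0.197, 0.373, and 0.61 CPM to 9.6, 7.28, and 13.4 CPM (log2 fold change 4.65 ± 0.33 SE, edgeR adjusted p = 1.51e-08). This was 9.77% ± 3.12 of the WT rise (log2 difference of responses -4.10 ± 0.58 SE, edgeR adjusted p = 4.91e-05). Cdkn2d, which encodes the CDK inhibitor p19, fell from 145, 135, and 160.3 CPM to 64.8, 62.6, and 55 CPM (log2 fold change -1.25 ± 0.16 SE, edgeR adjusted p = 8.48e-06), and Ccne2 and E2f3 rose to 3.64, 2.99, and 2.71 and 8.28, 5.69, and 6.92 CPM. The growth cyclin gene Ccnd2 was at 458, 702, and 499 CPM at 0 h and 407, 290, and 419.5 CPM at 4 h and was not called, against 1689 ± 204 CPM in WT cells (log2 difference of responses -2.06 ± 0.23 SE, edgeR adjusted p = 4.6e-06).

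Of 12 clock genes, 1 rose and 2 fell (median 0.07), against 3 and 2 in WT cells. Per1, a period gene also induced by CREB and glucocorticoids, rose from 41, 34, and 38.5 CPM to 134, 133, and 149.5 CPM (log2 fold change 1.90 ± 0.15 SE, edgeR adjusted p = 5.35e-08). Nr1d1 fell from 12.5, 9.6, and 12.8 CPM to 3.56, 4.64, and 4.37 CPM (log2 fold change -1.46 ± 0.23 SE, edgeR adjusted p = 0.000108) and Dbp to 12.6, 16.6, and 12.1 CPM. The call of Dbp was lost without library 3 at 0 h (log2 fold change -0.92), library 1 at 4 h (-0.99), or library 3 at 4 h (-0.94). Of 11 glucocorticoid receptor targets, 2 rose and 1 fell (median 0.84 without 1 gene at or under the limit of detection), against 2 and 2 in WT cells. Klf9 rose from 2.47, 2.61, and 4.35 CPM to 16.5, 11.3, and 11.5 CPM (log2 fold change 2.08 ± 0.24 SE, edgeR adjusted p = 3.39e-06). The kinase gene Sgk1 fell from 105, 103, and 124 CPM to 35.7, 41.9, and 38.2 CPM (log2 fold change -1.50 ± 0.15 SE, edgeR adjusted p = 7.93e-07). None of 8 GIMAP GTPase genes was called (median 0.19), and 1 fell in WT cells. None of 9 mRNA decay factors was called (median 0.62), against 1 higher and 1 lower in WT cells; Zfp36l2 was at 672, 507, and 987 CPM at 0 h and 409, 433, and 385 CPM at 4 h.

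**Figure D4:**
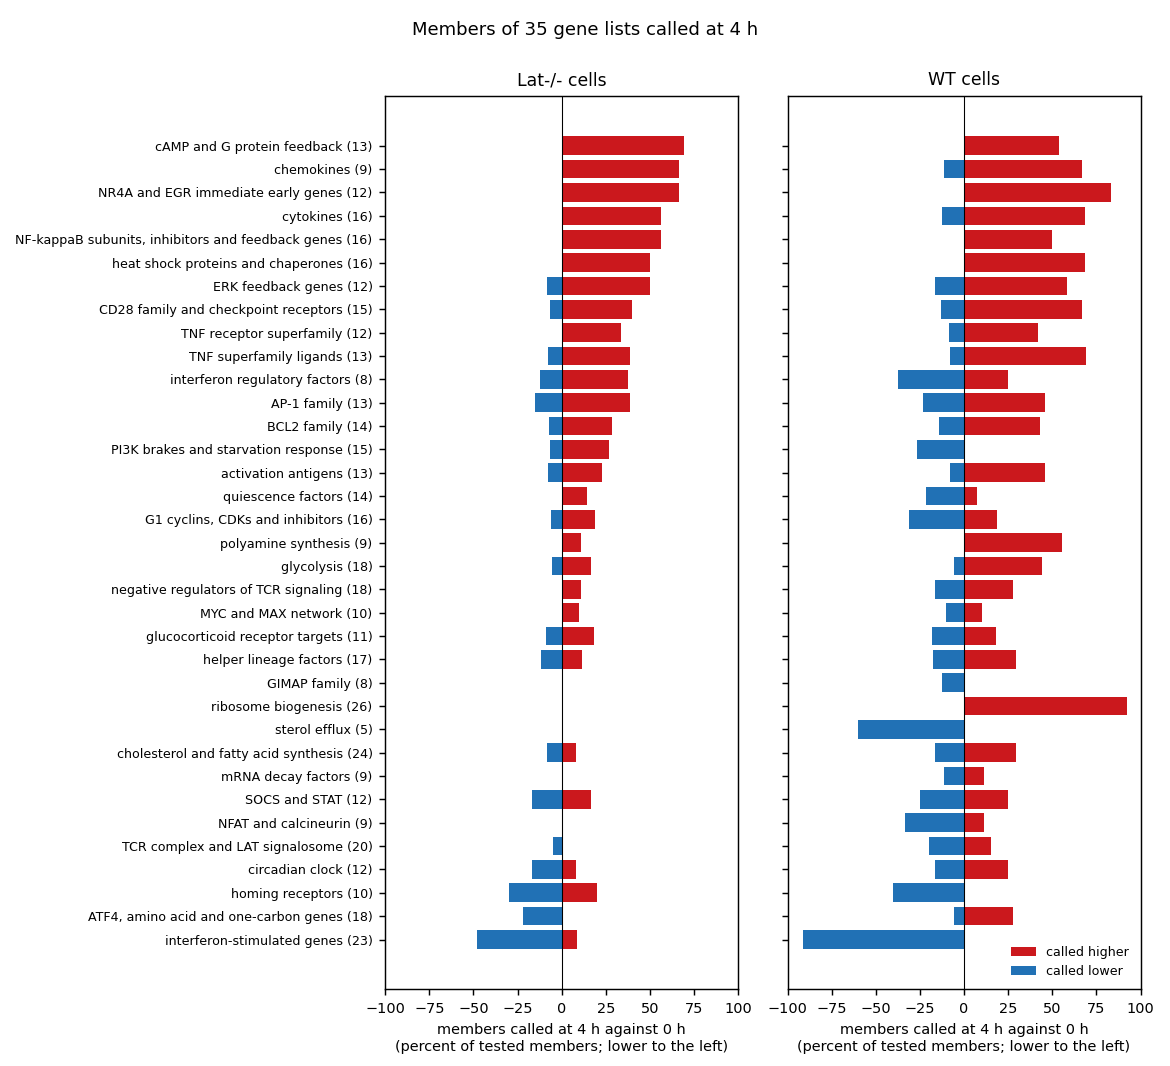
Bars give the percent of the genes of each of 35 lists called higher (to the right) or lower (to the left) at 4 h, with Lat-/- cells in one panel and WT cells in the other. The ribosome biogenesis bar is at 0 in Lat-/- cells, and the NF-kappaB and cAMP bars are at least as long as in WT cells.

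The 10 largest gaps below WT cells were in genes called higher in WT cells, of which 6 were called higher in Lat-/- cells too. Cxcr3, the TH1 chemokine receptor, was at 4.64, 3.92, and 8.5 CPM at 0 h and 4.43, 1.53, and 5.31 CPM at 4 h in Lat-/- cells, and at 91, 64.7, and 57.2 CPM in WT cells at 4 h (log2 difference of responses -4.83 ± 0.65 SE, edgeR adjusted p = 2.96e-05). Mir155hg, the host transcript of miR-155, rose from 0.197, 0, and 0.61 CPM to 1.41, 2.11, and 2.29 CPM against 16.9 ± 3.59 CPM in WT cells (log2 difference of responses -4.10 ± 0.98 SE, edgeR adjusted p = 0.00377). Without Lat-/- library 3 at 0 h the difference was -2.61 and was not called, with a Lat-/- log2 fold change of 4.25 in place of 2.75. The nucleotide receptor gene P2ry2 rose from 0.0494, 0.0932, and 0.163 CPM to 1.57, 0.528, and 1.35 CPM against 12.9 ± 1.96 CPM (log2 difference of responses -4.42 ± 1.21 SE, edgeR adjusted p = 0.00924). Fam83g, Crb3, Gm14718, and Gm17322 were the others. The 10 largest gaps above WT cells were in genes called lower in WT cells. Ampd1, of AMP deamination, fell from 4.69, 7.64, and 4.11 CPM to 0.497, 0.822, and 0.676 CPM in Lat-/- cells and to 0.28, 0.321, and 0.0754 CPM in WT cells (log2 difference of responses 3.49 ± 0.54 SE, edgeR adjusted p = 9.77e-05). Ifit3b was at 5.58, 6.8, and 4.31 and 5.09, 1.53, and 3.49 CPM and fell to 0.28, 0.229, and 0.151 CPM in WT cells (log2 difference of responses 3.87 ± 0.76 SE, edgeR adjusted p = 0.000846). Gm6545, Gm11695, and Ifi44 fell in both genotypes, and Gbp11 and Apol9b were called lower in WT cells and not called in Lat-/- cells. Itih5 was at 5.21, 2.94, and 2.03 CPM against 2.43, 2.47, and 1.58 CPM in WT cells, from 0 h levels of 1.61 ± 0.681 CPM and 15 ± 6.13 CPM.

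For 1626 genes called higher in WT cells with enough counts, the Lat-/- rise in CPM was set against the WT rise of the same gene. The median was 14.4%, and the middle of the distribution ran from 4.03% to 28.9% (quartiles). In the 3 libraries apart, the medians were 16.0%, 13.3%, and 11.6%. The genes were chosen by their WT rise, so the denominator is a selected value. The Lat-/- rise passed 50% of the WT rise for 188 genes and 100% for 49, and 262 genes were below their 0 h level. By list, the median was 114.5% for 11 heat shock genes, 41.9% for 8 NF-kappaB genes, 30.8% for 6 AP-1 genes, 19.6% for 4 polyamine genes, 17.5% for 6 ERK feedback genes, 15.7% for 8 NR4A and EGR genes, 13.0% for 6 cAMP genes, 12.2% for 4 TNF receptors, 9.77% for 8 glycolysis genes, 9.44% for 6 activation antigens, 5.12% for 24 ribosome biogenesis genes, and 2.80% for 8 TNF ligands. In other lists it was 41.7% for 4 cytokines, 26.6% for 9 CD28 family genes, 26.4% for 7 cholesterol genes, and 23.6% for 3 SOCS and STAT genes. It was 16.2% for 3 chemokines and for 5 negative regulators, 14.3% for 6 BCL2 genes, and 9.77% for 3 G1 genes. The rest were 7.74% (5 helper factors), 5.33% (4 ATF4 genes), 5.20% (3 clock genes), and 3.79% (3 TCR genes). Heat shock genes were low in library 3 at 4 h in both genotypes.

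**Figure D5:**
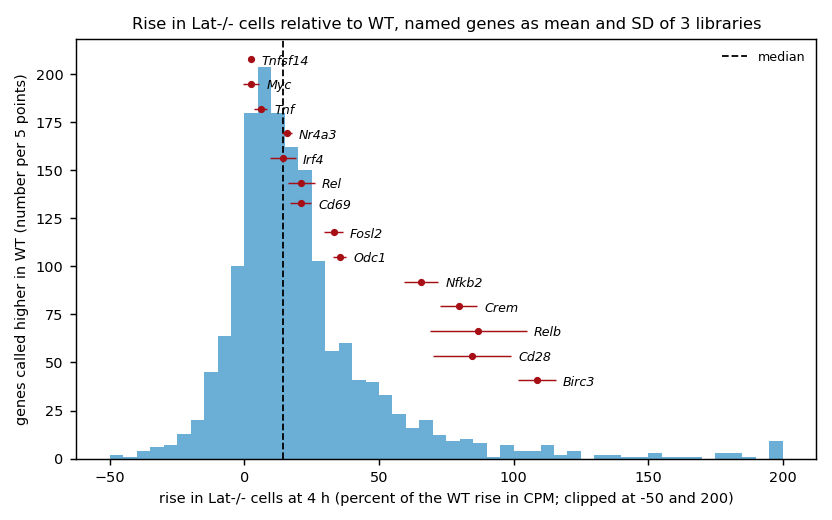
Histogram of the rise in Lat-/- cells as a percent of the WT rise for 1626 genes, with values beyond the axis drawn in the end bins and the median of 14.4% as a dashed line; points with bars give the mean and SD over 3 Lat-/- libraries for named genes. Most genes lie well under 50%, and Birc3, Relb, and Crem lie far to the right of the median.

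The comparison of 20 h with 4 h shares the 4 h libraries, so levels are only set side by side. Nr4a3 was at 548 ± 62.5 CPM at 4 h and 18.3 ± 11.1 CPM at 20 h, Irf4 at 249 ± 80.2 CPM and 87.8 ± 57.9 CPM, and Relb at 236 ± 39.8 CPM and 55 ± 15.4 CPM. The 20 h means of these early genes were the lower. Il7r was at 1564 ± 176 CPM and 2057 ± 333 CPM, S1pr1 at 1895 ± 91.2 CPM and 2244 ± 382 CPM, and Ifngr1 at 1051 ± 139.8 CPM and 562 ± 99 CPM. Igtp, at 1094 ± 467 CPM and 1185 ± 628 CPM, and Gbp2, at 614 ± 269.7 CPM and 775 ± 541 CPM, were still at similar means, and Hspa1a was at 0.0663 ± 0.0755 CPM at 20 h.

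Promoter windows were matched for 560 of the 856 genes called higher and 722 of the 1004 distinct symbols called lower, giving 725 and 946 windows. On either strand, the CRE core TGACG, searched after values were seen, was in 32.4% of the windows of genes called higher, 21.7% of those called lower, 27.5% of all 17072 windows of genes tested, and 20.8% of all 32851 windows. The whole CRE TGACGTCA was in 3.45%, 2.11%, 2.68%, and 1.79%, and each match also counts as a core. NF-kappaB sites were in 25.8%, 18.9%, 19.4%, and 16%, and the EGR site GCGTGGGCG in 2.62%, 0.74%, 1.04%, and 0.612%. The AP-1 site TGANTCA was in 7.31%, 6.24%, 5.9%, and 7.81%, the NFAT core GGAAA in 60.1%, 58.8%, 59.4%, and 61.3%, and the E-box CACGTG in 9.38%, 9.2%, 9.01%, and 7.15%. The serum response element was in 1.24%, 1.9%, 1.36%, and 1.63%, and the heat shock pair GAANNTTC, also searched after values were seen, in 6.9%, 6.77%, 6.03%, and 7.86%. The forkhead site GTAAACA was in 3.59%, 2.54%, 2.84%, and 3.65%, the sterol site TCACNCCAC in 0.828%, 1.06%, 1.23%, and 1.24%, and the ATF4 site in 2.9%, 2.96%, 2.62%, and 3.97%. These shares are descriptions and were not tested.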

How the data were processed

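The 18 libraries of the LAT experiment hold RNA of naive CD4+ T cells, and samples were grouped by the genotype, treatment, and replicate in their labels. The authors extracted RNA with an RNeasy Plus kit, prepared TruSeq Stranded mRNA libraries, removed adapter dimers from single reads (DimerRemover), aligned the rest to GRCm38 (STAR), and deposited raw counts of reads per gene from featureCounts. The submitters' processing notes also name bcl2fastq 2.17.1.14 and DESeq2. The strand setting, how multiply mapped reads were treated, and the annotation release are not given in the sources used here, so copies, overlapping genes, and pseudogenes may gain or lose reads. 0 per-sample columns were left unused. Symbols were taken from the GENCODE annotation of GRCm38 (55144 of 55385 identifiers matched).

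The main tool was edgeR 4.0.16 under R 4.3.3, beside limma 3.58.1 and version 1.17.8 of data.table. A gene entered if any library held a read, TMM factors scaled the libraries, all 18 libraries of the experiment entered 1 fit with a coefficient per genotype and time, and quasi-likelihood tests were adjusted by Benjamini-Hochberg. In this fit of 27780 genes the estimated prior degrees of freedom were infinite, and in edgeR's filterByExpr fit of 13928 genes they were 6.457. Calls come from the first, and values printed beside genes from the second. CPM are counts scaled to the library total times its TMM factor, with mean and SD over 3 libraries. For the score, log2 CPM were taken with a prior count of 2. The fold threshold of 2, the adjusted p threshold of 0.05, and the filter follow the study's methods.

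The members and gene lists were chosen with earlier results of these data known. Genes named were Lat, the 15 with the largest fold change in each direction among those averaging 50 counts or more and moving 1 way in every replicate number, the 10 with the largest difference of responses in each direction, the 10 called in opposite directions with the largest fold change, and up to 6 per list. Bcl2, Bcl2l1, Bcl3, Birc3, Cd226, Cd28, Chl1, Ctla4, Cxcl10, Dusp1, Dusp10, Dusp5, Egr1, Fasl, Fos, Gbp2, Hsp90ab1, Ier3, Ifit1, Ifng, Ifngr1, Igha, Ikzf4, Il10, Il21, Il4, Isg15, Junb, Kcnk5, Klf2, Klf6, Ly6c1, Mafg, Mcoln2, Nab2, Nfkb1, Nfkbib, Nop56, Nr4a1, Oas1a, Oas2, P2ry10, Pde4b, Piezo1, Rgs1, Rgs10, Rgs2, Rras2, Sik1, Slc2a1, Spag5, Tbc1d4, Tgfb1, Tnfaip3, Tnfsf10, Ulk1, Usp18, and Zbp1 fall outside this rule and were chosen after their values were seen. Some genes are not reported here. The alternatives were DESeq2 1.42.0, RLE factors, library totals without TMM factors, filterByExpr, adjusted p alone, the replicate block, and the compared groups fitted by themselves. Each library at 0 h and 4 h was also left out in turn, for the score only those of Lat-/- cells. The score had other settings as well. Fits without all libraries numbered 3 were chosen after seeing the data. On simulated counts of 26528 genes, the Lat-/- comparison recovered 93% of 100 genes changed by 1.5 and 100% of 100 changed by 2 on the log2 scale, with 3 false calls, and the difference of responses 88% and 98%, with 2. Every simulated gene had the spread that the first fit gives to genes of similar abundance. Changed genes were drawn among those averaging 50 counts or more. The false calls thus do not cover genes with a larger spread, nor the recovered shares genes with fewer counts.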

Additional observations from a re-analysis of the deposited data

Results flagged for a closer look

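The response of Lat-/- cells differed from that of WT cells under the same stimulus, by a test of the difference itself in edgeR's fit of 27780 genes. The count was 1214 genes with the Lat-/- response above the WT response and 1207 with it below. Part of the named genes past the thresholds are given here by the log2 difference of responses (Lat-/- minus WT), from that fit. They are Lat, genes named for the largest fold changes, differences, or opposite calls, and some chosen after their values were seen. Genes named through a list alone, such as Il7r, Myc, and Tnf, are left out here, although many of them passed the thresholds too. For interferon genes the differences were Irf1 2.3, Gbp2 2.81, Gbp3 2.41, Gbp5 3.01, Gbp11 2.98, Igtp 2.42, Irgm1 2.47, Irgm2 2.2, Iigp1 2.92, Tgtp1 2.61, Gm12250 2.88, Ifit1 2.55, Ifit3b 3.87, Ifi44 2.89, Ifng 2.31, and Apol9b 3.06. For genes called higher in Lat-/- cells alone the differences were Ifngr1 1.93, Ikzf4 1.76, P2ry10 1.36, Klf6 1.56, Rgs10 1.99, Rras2 1.58, Tbc1d4 1.32, Dusp10 1.49, and Tnfaip3 1.09. For immediate early and AP-1 genes the differences were Egr3 2.06, Nr4a2 -1.75, Fos -1.3, and Junb -1.18. For ligands, receptors, and cytokines the differences were Fasl -2.25, Tnfsf14 -4.51, Cxcr3 -4.82, P2ry2 -4.42, Sema7a -3.04, and Il21 1.78. For genes that fell deeply in both genotypes the differences were Ampd1 3.5, Drc1 2.67, Dtx1 1.85, Igfbp4 2, Slc16a5 2.36, Gm6545 3.5, and Gm11695 3.29. The differences of the remaining genes were Angptl2 -5.38, Cdkn1a -4.1, Crb3 -3.98, Fam83g -3.73, Gm14718 -3.84, Gm15675 2.4, Gm17322 -4.29, Hspa1b 1.2, Itih5 3.87, Khdrbs3 2.86, Klf2 1.51, Mir155hg -4.11, and Nfkb1 -1.59. Lat, the deleted gene, gave -1.26. With a spread of their own, Fos, Hspa1b, Ifng, Il21, Khdrbs3, Nr4a2, and Tnfaip3 missed the thresholds (edgeR adjusted p = 0.0546, 0.609, 0.182, 0.146, 0.0999, 0.0641, and 0.146). Groups of 3 were too small for a search for single libraries far from their group.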

How the results depend on the processing

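The Lat-/- counts of 856 higher and 1005 lower genes were 849 and 946 by DESeq2, 907 and 971 with RLE factors, 757 and 1172 with library totals, 793 and 918 with filterByExpr, 796 and 1028 with the 6 Lat-/- libraries alone, and 894 and 995 with the libraries numbered 3 left out. Without a fold threshold they were 2049 and 2236, and the counts of 1214 and 1207 differences became 2062 and 2107. The differences were 1259 and 1152 by DESeq2, 1666 and 929 with library totals, and 1712 and 1339 with the libraries numbered 3 left out. Leaving out each Lat-/- library at 0 h or 4 h in turn gave 714 to 868 higher and 861 to 1107 lower genes. With each Lat-/- or WT library of these times left out, the differences were 928 to 1841 above and 1050 to 1350 below WT cells. The highest counts of differences, 1841 and 1350, were those without WT library 3 at 4 h. The cause was not tested.

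The score of 38.3% was 51.85% with the 500 most induced and 500 most repressed genes, 34.24% with induced genes only, 43.76% with repressed genes only, and 36.8% to 40% without each library. The response difference of Ccl3 (-0.49 on the log2 scale, not called) ran from -1.04 to 5.38 without each library. It was 5.38 without Lat-/- library 3 at 0 h, which held all its 0 h reads in that genotype, and 5.01 with all libraries numbered 3 left out. Of 3527 alternative values of log2 fold changes, 3403 kept direction and side of the threshold, 54 lost the call, and 70 gained it. For differences of responses these were 4817, 112, and 108 of 5039, and 2 values were reversed in direction. Of the gained calls, 42 and 30 came from the setting without a fold threshold, which cannot lose a call.

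Replicate numbers gave no clear pairing of the 0 h with the 4 h samples. Lat-/- libraries 2 and 3 at 0 h each correlated best with their own number at 4 h, and library 1 did not. Deviations of same-numbered libraries at 0 h and 4 h correlated at -0.0797, 0.13, and 0.157 in Lat-/- cells and at -0.0746, -0.315, and 0.00854 in WT cells, over 10013 genes. Between genotypes at 0 h they correlated at 0.325, 0.357, and 0.453, each library best with its own number, and at 4 h at 0.222, -0.000527, and 0.418. The test of the difference of responses did not use pairing within a time, and the replicate block is shared across times. The replicate block gave 845 higher and 1017 lower genes, and 1266 and 1241 differences. Setting each 4 h library against its own 0 h library cannot change the mean score of 38.27%. The SD of the score became 4.44, against 3.02.

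Depth limits genes near the limit of detection of 0.119 to 0.169 CPM, among them Il13, Il17a, and Fosl1, and intervals for counting error do not cover the spread between libraries, which was 16.8 to 118 times that of counting noise (chi-square per degree of freedom). Within the Lat-/- and WT groups at 0 h and 4 h, no pair of libraries was alike enough to be 1 library deposited again. Pairs from different groups were not checked for this.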
